A study of Mus musculus with 6 samples.

Results

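Trimethylation of lysine 4 on histone H3 (H3K4me3) was examined inside the introns of protein-coding genes, away from annotated transcript starts, in day 2 mouse PGCLCs (primordial germ cell-like cells). An interval of the H3K4me3 list was counted as intronic if it lay on chromosomes 1 to 19, was under 3000 bp wide, and had its centre inside a protein-coding gene but in no exon and over 5000 bp from every annotated transcript start. Of the 29072 H3K4me3 intervals, 27179 were under 3000 bp wide on those chromosomes, and 2266 of these met the whole rule. The widest intronic interval measured 2894 bp and the narrowest interval left out for its width alone measured 3072 bp. The closest one to a transcript start lay 5001 bp away, and the farthest one left out for its distance lay 4993 bp away.

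All samples came from untreated 129Sv/J cells in which the Tex10 protein carried an HA tag at its C terminus. The 6 samples were 2 precipitated with an antibody against H3K4me3 (ab8580), 2 with an antibody against the HA tag (ab9110), here called HA-Tex10, and 2 of input DNA taken with no antibody. PGCLCs are made in culture as a model of the germline founder cells of the embryo, and no other cell type or time point was compared here. Each antibody had 1 list of intervals with no score, so no value below has a replicate error, no test between samples was possible, and the depth is unknown.

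H3K4me3 is deposited by the SET1 and MLL methyltransferase complexes and is best known as a mark of the start sites of active or poised genes, most of all those with many CG dinucleotides. Inside introns it can mark alternative promoters, active enhancers or transposable elements that carry a promoter of their own. The LINE-1 retrotransposon is such an element, and in the mouse its young copies begin with a row of tandem promoter units, called monomers, followed by the reading frames of its proteins.

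The labelled cell type was checked at promoters. H3K4me3 came within 1 kb of a coding start of 7 of 7 pluripotency genes (among them Pou5f1, Sox2 and Nanog), of 4 of 4 epiblast genes and of 5 of 7 germ cell genes, with Prdm1, Tfap2c and Prdm14 marked and Dppa3 and Nanos3 not. Of all protein-coding genes on these chromosomes 62.3% were marked, so the share of germ cell genes was near that of all genes. H3K4me3 marked 0 of 3 blood genes and 0 of 4 genes of liver, heart and pancreas. The 4 mesoderm and 4 endoderm genes were all marked, as were 3 of 4 neural and 2 of 4 fibroblast genes. A promoter mark does not show that a gene is expressed.

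The intronic intervals were of 2 kinds. Where over 50% of the 32-base words in the central 300 bp occurred at more than 1 place in the reference genome, on either strand, the interval was named mostly repeated, and otherwise single-copy. The 6 sequences below show the difference, with every CG dinucleotide in capitals, since CG density is what promoters and tandem units share. They were read from the RefSeq genome GRCm38.p6 and run 5′ to 3′. The first 3 are each 1 tandem unit from a mostly repeated interval, 1 for each of the 3 largest families of related intervals described below. The family A unit lies in Tbc1d5 (chr17:50926940-50927151, plus strand), the family B unit in Dlg2 (chr7:91747957-91748164, minus strand) and the family C unit in Npsr1 (chr9:24266963-24267168, plus strand).
Family A in Tbc1d5: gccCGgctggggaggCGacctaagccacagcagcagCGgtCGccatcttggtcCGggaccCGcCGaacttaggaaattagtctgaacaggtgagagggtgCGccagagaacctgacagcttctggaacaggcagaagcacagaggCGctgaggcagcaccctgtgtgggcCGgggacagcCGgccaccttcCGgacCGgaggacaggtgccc
Family B in Dlg2: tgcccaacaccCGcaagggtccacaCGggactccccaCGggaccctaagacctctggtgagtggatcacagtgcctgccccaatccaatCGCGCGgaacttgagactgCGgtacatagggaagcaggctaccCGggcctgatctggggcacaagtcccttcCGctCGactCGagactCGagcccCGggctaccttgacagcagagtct
Family C in Npsr1: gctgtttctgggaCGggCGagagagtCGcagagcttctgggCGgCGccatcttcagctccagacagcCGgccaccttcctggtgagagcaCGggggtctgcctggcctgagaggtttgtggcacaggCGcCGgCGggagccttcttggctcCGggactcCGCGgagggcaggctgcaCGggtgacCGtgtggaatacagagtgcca
The units held 13, 13 and 15 CG dinucleotides in 212, 208 and 206 bases. The next 3 are the central 200 bp of single-copy intervals on the plus strand. Those in Gata4 (chr14:63255794-63255993) and Osbp2 (chr11:3762146-3762345) had the most CG dinucleotides of the single-copy intervals. That in Gab1 (chr8:80858846-80859045) lay in a wide single-copy interval that met HA-Tex10.
Gata4: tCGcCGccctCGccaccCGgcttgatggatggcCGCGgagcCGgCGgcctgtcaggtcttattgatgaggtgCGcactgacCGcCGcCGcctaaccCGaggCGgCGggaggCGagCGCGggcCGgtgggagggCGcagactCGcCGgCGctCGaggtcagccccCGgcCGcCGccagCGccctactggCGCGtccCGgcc
Osbp2: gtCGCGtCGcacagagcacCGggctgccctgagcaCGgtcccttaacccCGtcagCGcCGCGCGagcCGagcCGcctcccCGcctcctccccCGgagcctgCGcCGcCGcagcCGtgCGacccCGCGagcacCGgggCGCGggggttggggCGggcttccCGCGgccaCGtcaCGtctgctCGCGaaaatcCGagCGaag
Gab1: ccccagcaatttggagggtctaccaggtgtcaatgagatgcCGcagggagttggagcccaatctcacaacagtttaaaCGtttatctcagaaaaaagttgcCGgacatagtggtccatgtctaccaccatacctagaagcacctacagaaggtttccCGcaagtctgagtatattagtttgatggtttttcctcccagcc
The Gata4 and Osbp2 stretches held 31 and 33 CG dinucleotides, while that of Gab1 held 4.

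Of the 2266 intronic intervals, 952 (42.0%, 95% Wilson interval 40.0 to 44.1%) were mostly repeated, compared with 18.4% of all H3K4me3 intervals of the same chromosomes and width limit. The other 1314 were single-copy. Promoter intervals, those centred within 1 kb of a coding start, were mostly repeated in 2.48% of 13364 cases. Intergenic intervals, those centred in no gene and over 5 kb from every start, were so in 58.7% of 4481 cases. Intronic intervals thus held more repeated sequence than promoter intervals and less than intergenic ones. The 95% intervals given with shares and densities cover counting only, as if each interval were independent of its neighbours.

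Single-copy intronic intervals were narrower, with a median of 396 bp (quartiles 266 and 646 bp) compared with 577 bp (quartiles 366 and 880.2 bp) for the mostly repeated ones. Both were narrower than promoter intervals, whose median was 1081 bp. Widths of intronic intervals ran from 1 bp, and 72 (3.18%) were under 100 bp. The 2 kinds differed further in GC content. Single-copy intervals had a median GC content of 52.5% in their central 200 bp, between the 42% of 3158156 tiles of 200 bp over all introns where such a centre could lie and the 62.5% of promoter intervals. Mostly repeated intervals had a median of 63.5%. The ratio of observed to expected CG dinucleotides had a median of 0.304 in single-copy and 0.581 in mostly repeated intervals, compared with 0.152 in the tiles and 0.709 at promoters. The plot of base composition shows the mostly repeated intervals as a compact group at high GC content and the single-copy intervals spread below it.

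**Figure D1:**
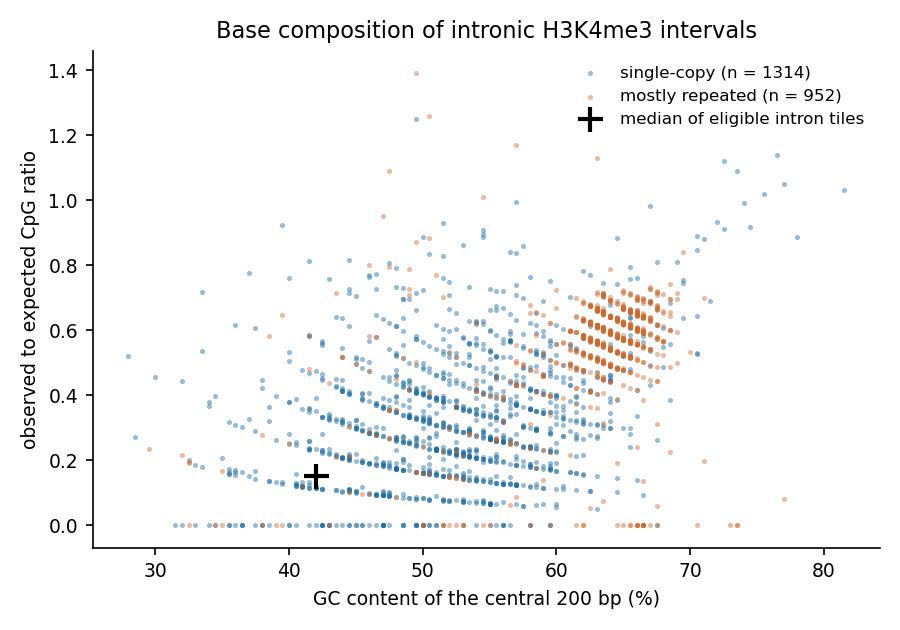
GC content (%, horizontal axis) and ratio of observed to expected CG dinucleotides (vertical axis) in the central 200 bp of each intronic H3K4me3 interval, with single-copy intervals in blue, mostly repeated ones in orange and the median of the intron tiles as a cross. Mostly repeated intervals gather around a median of 63.5% GC, while single-copy intervals have a median of 52.5%.

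A GC content above 50% together with a ratio above 0.6, the composition used to define CpG islands, was found in 482 intronic intervals (21.3%), compared with 42.9% of all H3K4me3 intervals. Among single-copy intronic intervals 88 had it (6.70%, 5.47 to 8.18%), and among mostly repeated ones 394 (41.4%, 38.3 to 44.5%). In the intron tiles the share was 0.361%. The few single-copy intervals of this composition included some of the most CG-dense stretches of the set. The interval in Gata4, which encodes a transcription factor of endoderm and heart, had 49 CG dinucleotides in the 300 bp around its centre, and that in Osbp2, an oxysterol-binding protein gene, held 46. The interval in Macrod1, an ADP-ribosyl hydrolase gene, held 42, and those in Cntn3, a contactin adhesion gene, and Tspan4, a tetraspanin gene, held 39 each. The next 5 lay in Phactr1 with 38, Prr7 and Pdxdc1 with 35 each, and Unc5a, a netrin receptor gene, and Nrg2, a neuregulin gene, with 34 each. The intervals in Unc5a (106 bp) and Phactr1 (274 bp) were narrower than the window, which there reads beyond them. None of these 10 met HA-Tex10, and 9 of the 10 lay in a gene with H3K4me3 at its own promoter, the exception being Cntn3. Both counts were near the shares of all single-copy intronic intervals, 3.04% for HA-Tex10 and 91.6% for a marked host gene.

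Most of the mostly repeated intervals belonged to 3 families. Intervals were linked if they shared at least 20 words of 32 bases, which gave 117 groups, 96 of them with a single interval. The 3 largest, called A, B and C here, held 468, 281 and 42 intervals and together 791 (83.1%) of the 952. Their words occurred a median of 1882, 2257 and 811 times in the reference. The other 161 mostly repeated intervals had a median GC content of 56.5% and words with a median of 9 occurrences.

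The families were built of tandem units of about the same length. In the 3 kb around each centre, words of 24 bases recurred most often at one distance, and this lay between 198 and 222 bp in 407 of 468 family A intervals (87.0%), 270 of 281 in family B (96.1%) and 42 of 42 in family C. The commonest distance was 212 bp in family A (320 intervals, with 214 bp in a further 77). In family B it was 208 bp (227 intervals, with 201 bp in 28), and in family C 206 bp (28 intervals, with 205 bp in 12). The plot of repeat distances shows these lengths as separate sharp peaks. Units of about this length were found in 4 of 1314 single-copy intronic intervals (0.304%). Recurring words also make an interval mostly repeated, so the definition itself favours a low share there. In intergenic mostly repeated intervals their share was 76.2% (74.6 to 77.8%), compared with 75.7% (72.9 to 78.4%) in the intronic ones, so the tandem units were not particular to introns.

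**Figure D2:**
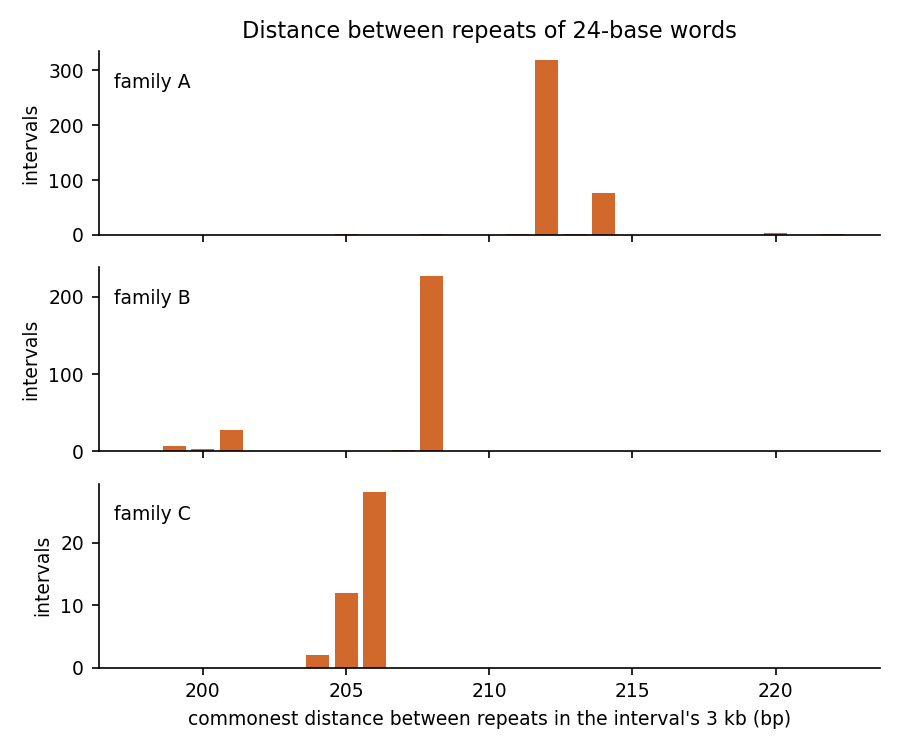
Number of intronic intervals (vertical axis, a separate scale for each family) by the commonest distance in bp between recurring 24-base words (horizontal axis), for families A, B and C from top to bottom. Family A peaks at 212 bp, family B at 208 bp and family C at 206 bp.

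A long reading frame lay beside the units. Within 8 kb of the centre, a run of at least 1000 codons without a stop was found in 381 family A, 196 family B and 36 family C intervals, together 613 of 791 (77.5%), and in 15 of the other 1475 intronic intervals (1.02%). The run had a median of 1300 codons in each family. Where it was present, it lay on the same side of the units in 380 of 381, 196 of 196 and 36 of 36 intervals, which gave each family an orientation. Tandem units ahead of a long reading frame are the layout of young LINE-1 elements. The families were not matched to an annotation of repeats, and they are named by letter for that reason.

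The orientation was set against that of the host gene. Family A read against its host gene in 268 of 468 cases (57.3%, 52.7 to 61.7%), family B in 189 of 281 (67.3%, 61.6 to 72.5%) and family C in 22 of 42 (52.4%, 37.7 to 66.6%). Over the 3 families the share was 60.6% (57.1 to 63.9%). To see whether this belonged to the mark, copies of the families were sought throughout the eligible introns, meaning all bases where the centre of an intronic interval could lie. A copy was a stretch with at least 100 words shared by 5 or more intervals of a family, and 1287 were found, 767 of them (59.6%) with H3K4me3. The antisense share was 60.6% (57.1 to 64.0%) in copies with H3K4me3 and 61.7% (57.5 to 65.8%) in those without, so it was nearly the same in both.

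H3K4me3 was found on 456 of 699 family A copies (65.2%, 61.6 to 68.7%), 270 of 486 family B copies (55.6%, 51.1 to 59.9%) and 41 of 102 family C copies (40.2%, 31.2 to 49.9%). These shares describe the reference genome only, because the words came from the marked intervals themselves and the presence of each copy in 129Sv/J cells was not tested. The long reading frame was present in 78.4% (75.3 to 81.1%) of the copies with H3K4me3 and in 40.0% (35.9 to 44.3%) of the 520 without. Copies with H3K4me3 were also longer, with a median of 857 bp (quartiles 692 and 1129 bp) compared with 509 bp (quartiles 397 and 606 bp). Length here is the stretch over which the family words were found. Those words came from the marked intervals, so the definition itself favours greater length in copies with H3K4me3. Copies of like length were not compared. How the authors treated reads that fit several places equally well is not given in the sources used here, and its part in which copies carry an interval was not tested.

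HA-Tex10 lay at the repeated intervals more often than at the single-copy ones. Tex10 is a nuclear protein found in a complex with the rRNA-processing factors Las1l and Senp3 and reported at enhancers in embryonic stem cells. Of all 2266 intronic intervals, 194 shared at least 1 bp with an HA-Tex10 interval (8.56%, 7.48 to 9.78%), which is near the 8.98% of all H3K4me3 intervals. Among mostly repeated intervals the share was 16.2% (154 of 952, 14 to 18.7%), and among single-copy ones 3.04% (40 of 1314, 2.24 to 4.12%). The single-copy share lay below those of single-copy intergenic intervals (5.08%, 4.17 to 6.18%) and single-copy promoter intervals (9.42%, 8.93 to 9.94%), whose counting ranges it did not touch. Wider intervals share 1 bp more easily, and the shares were not matched for width. The median width was 396 bp for single-copy intronic, 426 bp for single-copy intergenic and 1087 bp for single-copy promoter intervals. The repeated share was close to that of mostly repeated intergenic intervals, 15.9%.

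By family, HA-Tex10 was met by 73 intervals of family A (15.6%, 12.6 to 19.2%), 37 of family B (13.2%, 9.71 to 17.6%) and 14 of family C (33.3%, 21 to 48.4%). The range of family C lay above those of both larger families, though it rests on 14 intervals. Of the family copies in eligible introns, 124 of 767 with H3K4me3 met HA-Tex10 (16.2%, 13.7 to 18.9%) and 3 of 520 without (0.577%, 0.196 to 1.68%). The copies with H3K4me3 were the longer ones by a measure that favours them, and the part of length in this contrast was not tested. Intronic intervals that met HA-Tex10 were wider, with a median of 828 bp compared with 438 bp for the rest. Seen from the other side, 406 HA-Tex10 intervals had their centre in eligible intron, and 205 of them (50.5%, 45.6 to 55.3%) met an intronic H3K4me3 interval. Of all 4331 HA-Tex10 intervals 2990 met an H3K4me3 interval, a larger share. That count allows H3K4me3 intervals of any place and width, so it is not a like comparison.

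The widest single-copy intervals with HA-Tex10 lay in 9 genes. The widest, of 2894 bp, lay in the second intron of Fgfr1, which encodes a fibroblast growth factor receptor, and held 2 HA-Tex10 intervals. A second interval of 1418 bp in the same intron met a further HA-Tex10 interval of 219 bp. The interval in the first intron of Gab1, an adaptor of receptor tyrosine kinases, was 2644 bp wide, and that in Zmynd8, a chromatin reader gene, 2449 bp. An interval of 2437 bp lay in Zfhx3, a homeodomain zinc finger gene. The other 5 were in Mef2b (1602 bp), Igf1r, the receptor of insulin-like growth factor 1 (1541 bp), Pecam1, an adhesion molecule also found on germ cells (1465 bp), Iqgap1 (1275 bp) and Sh3rf1 (1098 bp). Of these 10 intervals 6 lay on chromosome 8. So did 16 of all 40 single-copy intronic intervals that met HA-Tex10, and 17.6% of the HA-Tex10 intervals on chromosomes 1 to 19.

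Among the 10 widest intronic intervals of either kind, 9 were single-copy and 3 met HA-Tex10. Besides those in Fgfr1 and Gab1 they lay in Tns3 (2869 bp), a focal adhesion gene, Akap12 (2862 bp), a kinase scaffold gene, Lrp11 (2834 bp), Sorcs2 (2819 bp), a sorting receptor gene, and Gse1 (2815 bp). The last 3 were in Enox1 (2798 bp), Etv5 (2776 bp), a transcription factor gene of the FGF pathway, and Fntb (2729 bp), the beta subunit of farnesyltransferase. The Sorcs2 interval belonged to family A and met 3 HA-Tex10 intervals. All 10 host genes had H3K4me3 at their own promoter. Of all intronic intervals 80.6% lay in such a gene and 8.56% met HA-Tex10.

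The 2 kinds of interval lay in different places within genes. Eligible intron amounted to 633 Mb and held 3.58 intronic intervals per Mb (3.43 to 3.73), of which 2.08 were single-copy and 1.5 mostly repeated. Single-copy intervals thinned out with distance from the nearest transcript start, from 3.91 per Mb (3.6 to 4.24) between 5 and 10 kb to 2.47 (2.23 to 2.72) between 10 and 20 kb and 1.41 (1.24 to 1.59) between 20 and 50 kb. Between 50 and 100 kb there were 0.763 per Mb (0.592 to 0.970), and beyond 100 kb 0.154 (0.0664 to 0.303), the latter from 8 intervals. Mostly repeated intervals showed no such fall, with 1.12 per Mb (0.954 to 1.30) between 5 and 10 kb and 1.51, 1.69, 1.74 and 1.52 per Mb in the 4 bins farther out.

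**Figure D3:**
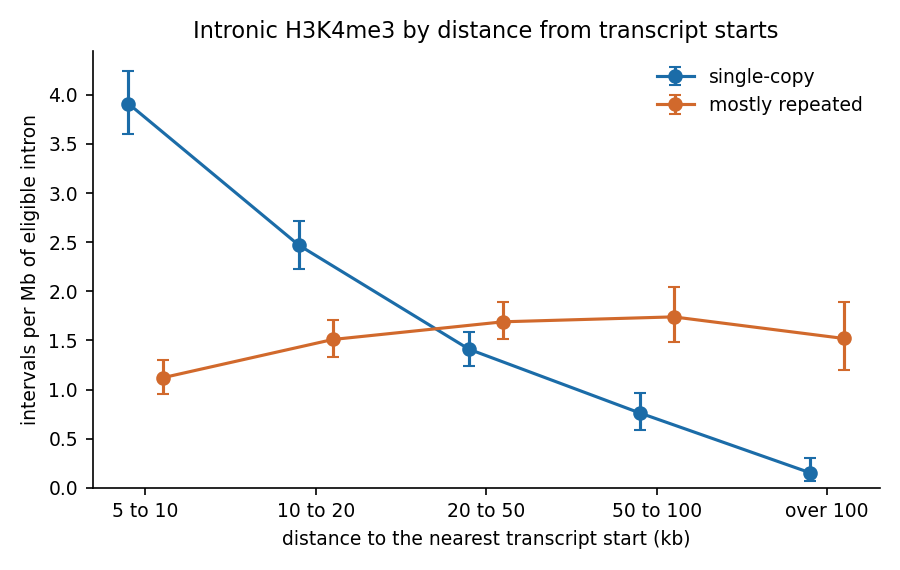
Intronic H3K4me3 intervals per Mb of eligible intron (vertical axis) by distance in kb from the nearest transcript start (horizontal axis), single-copy in blue and mostly repeated in orange, with 95% Poisson intervals as bars. Single-copy intervals fall from 3.91 to 0.154 per Mb, while mostly repeated ones stay between 1.12 and 1.74.

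First introns held 743 of the 2196 intervals that could be placed in an intron of the longest coding transcript (33.8%, 31.9 to 35.8%), while they made up 24.3% of the eligible bases. For single-copy intervals the share was 41.8% (39.2 to 44.6%), and for mostly repeated ones 22.7% (20.1 to 25.5%), a range that holds the share of bases. Per Mb, single-copy intervals numbered 3.52 in first introns and 1.57 in later ones. First introns also lie closer to starts, so this value and the fall with distance are not separate measurements.

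Single-copy intervals lay mainly in genes with a marked promoter. In genes with H3K4me3 within 1 kb of a coding start they numbered 2.59 per Mb (2.45 to 2.74), and in other genes 0.658 per Mb (0.541 to 0.792). The order was the opposite for mostly repeated intervals, at 1.34 per Mb (1.24 to 1.45) in marked and 1.95 per Mb (1.74 to 2.17) in unmarked genes. Marked genes thus held 91.6% of single-copy and 65.4% of mostly repeated intervals, and 73.3% of the eligible bases.

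In all, 1437 of 12592 protein-coding genes with eligible intron held an intronic interval (11.4%). Of these host genes 1096 (76.3%, 74.0 to 78.4%) had promoter H3K4me3, compared with 69.5% of all genes with eligible intron. Host genes have long introns, with a median of 78.1 kb of eligible intron. The 1945 genes with at least that much were marked in 76.6% of cases, though their own median was 145 kb and 719 of them were hosts. By kind, 87.6% (85.1 to 89.7%) of the 813 hosts of single-copy intervals and 64.1% (60.5 to 67.6%) of the 702 hosts of mostly repeated intervals were marked. Both kinds were hosted by 78 genes, which is 9.59% of the hosts of single-copy and 11.1% of the hosts of mostly repeated intervals. Of all genes with eligible intron, 5.57% hosted mostly repeated and 6.46% single-copy intervals.

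A single interval was found in 937 host genes, 2 in 303 and 3 or more in 197. The predicted gene Gm20388, whose annotated body on chromosome 8 spans several other genes, held the most, 42, among them the 19 of Gse1. Zfhx3 held 12 and Rbpms, an RNA-binding protein gene, 11. Dlgap1, a postsynaptic scaffold gene, held 10, Etl4 and Cntnap2, a neurexin-family adhesion gene, 9 each, and Ccnd3, which encodes the G1 cyclin D3, and Pitpnc1, a phosphatidylinositol transfer gene, 8 each. Trim71, an RNA-binding ubiquitin ligase gene of stem cells and early embryos, held 7, as did 6 further genes, and is named because it had the least eligible intron of them. Nearly all intervals of these genes were single-copy, except in Dlgap1 (5 of 10) and Cntnap2 (4 of 9). Relative to eligible intron, Trim71 had 182 intervals per Mb, Rbpms 144 and Ccnd3 103, compared with 4.55 in Cntnap2. Short introns gave the highest densities among genes with 3 or more, in Mkrn1, a ubiquitin ligase gene (5 intervals in 4.84 kb), and Dusp4, a phosphatase of MAP kinases (5 in 5.73 kb). Mapk6 had 3 in 4.82 kb, Eif4ebp1, a repressor of translation, 3 in 4.85 kb and Mdfi 3 in 10.6 kb.

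A further H3K4me3 interval lay within 1 kb of 533 intronic intervals (23.5%, 21.8 to 25.3%), compared with 31.5% of all H3K4me3 intervals. Among single-copy intervals the share was 33.9% (31.4 to 36.5%), and among mostly repeated ones 9.24% (7.56 to 11.3%). The median gap to the nearest H3K4me3 interval was 4.39 kb for single-copy and 59.2 kb for mostly repeated intervals.

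Chromosome 8 stood apart from the other chromosomes for single-copy intervals. It held 205 of the 1314 (15.6%, 13.7 to 17.7%) and 5.90 per Mb (5.12 to 6.76), while the other 18 chromosomes ranged from 1.12 per Mb on chromosome 1 to 2.98 on chromosome 11. Mostly repeated intervals numbered 1.87 per Mb on chromosome 8, inside the range of the others (0.816 to 2.1). Chromosome 8 makes up 5.25% of the bases of these chromosomes and held 5.31% of single-copy promoter intervals, 7.51% (6.40 to 8.80%) of single-copy intergenic intervals and 17.6% of all HA-Tex10 intervals. Its single-copy promoter intervals had a median width of 1345 bp, compared with 1073 bp elsewhere. The copy number of the chromosome in these cells was not tested.

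**Figure D4:**
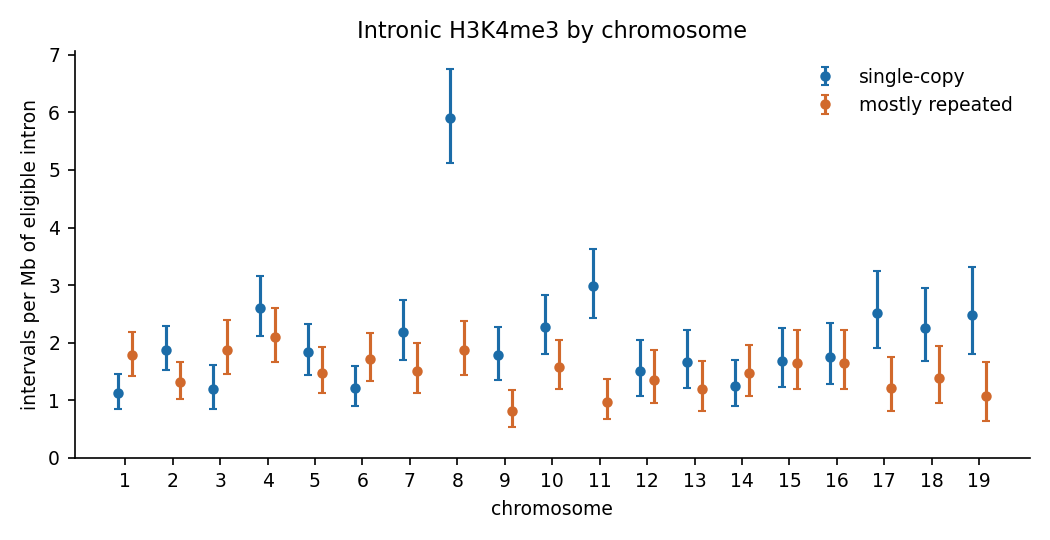
Intronic H3K4me3 intervals per Mb of eligible intron (vertical axis) on each of chromosomes 1 to 19 (horizontal axis), single-copy in blue and mostly repeated in orange, with 95% Poisson intervals as bars. Single-copy intervals reach 5.90 per Mb on chromosome 8 and at most 2.98 elsewhere.

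Without chromosome 8 the intronic intervals numbered 1996, at 3.34 per Mb. HA-Tex10 then met 2.16% (1.46 to 3.20%) of single-copy and 15.7% (13.4 to 18.2%) of mostly repeated intervals. On chromosome 8 itself the shares were 7.80% (4.86 to 12.3%) and 23.1% (14.5 to 34.6%). Of the 10 genes with most intronic intervals 4 lay on chromosome 8, namely Gm20388, Gse1, Zfhx3 and Rbpms.

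Gene lists were described by how many of their members with eligible intron hosted an intronic interval, beside the 11.4% of all such genes. Of 18 genes of naive and formative pluripotency, 6 were hosts (33.3%, 16.3 to 56.3%), with 21 single-copy and 1 mostly repeated interval. Trim71 held 7, Etv5 held 5, Jarid2, a subunit of the Polycomb complex PRC2, held 5, and Esrrb, an orphan nuclear receptor of naive pluripotency, held 3. Sall1 and Zfp42, also known as Rex1, held 1 each. All 6 had a marked promoter, as did all 31 genes of the list found on these chromosomes.

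Germ cell genes were hosts in 5 of 19 cases (26.3%, 11.8 to 48.8%), with 2 intervals in Pecam1 and 1 each in Prdm1, which encodes the germ cell determinant Blimp1, Kit, the receptor of stem cell factor, Itgb3 and Smc1b, a meiotic cohesin. Those of Itgb3 and Smc1b were mostly repeated. Of 9 mesoderm and somatic genes 1 was a host, Gata4.

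Among signalling genes, 5 of 28 Wnt genes were hosts (17.9%, 7.88 to 35.6%). These were the ligand gene Wnt3a, the receptor gene Ror2, the nuclear factor genes Tcf7l1 and Tcf7l2, with 1 interval each, and Rnf43, a ligase that removes Wnt receptors, with 2. Wnt3a and Rnf43 had no H3K4me3 within 1 kb of a coding start, while the other 3 had. Of 29 BMP, Nodal and FGF genes 6 were hosts (20.7%, 9.85 to 38.4%). They were the ligand genes Bmp7 and Fgf8, with 1 each, the receptor genes Fgfr1, with 3, and Fgfr2, with 7, and the SMAD genes Smad4 and Smad6. The annotated body of Fgfr2 is far longer, with 1966 kb of eligible intron compared with 13.6 kb in Fgfr1. The centre of an interval in Fgfr2 lay 72 bp from a RefSeq transcript start of another gene, Plekha1, so a place in this body need not belong to the receptor. The 3 intervals of Smad4, the shared mediator of BMP and Nodal signals, were mostly repeated, and the 1 of the inhibitor Smad6 was single-copy.

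Of 25 genes for H3K4 and H3K27 enzymes and their partners 4 were hosts (16.0%, 6.40 to 34.7%), namely Jarid2, the H3K4 methyltransferase subunit gene Setd1b and the demethylase genes Kdm5b and Kdm2b. In the list of DNA methylation genes 2 of 13 were hosts, Dnmt3a with 2 intervals and Tet2 with 1. Of 22 imprinted genes 1 was a host, Kcnq1. The ranges of the pluripotency and germ cell lists lay just above the 11.4% of all genes and those of the other 6 lists included it. The lists differ in how much intron their genes hold and were chosen with results of these data known. Median eligible intron was 42.1 kb in the germ cell list and 11.8 kb in the pluripotency list, compared with 15.8 kb in all such genes. The 11.4% is therefore not matched to the germ cell list for length.

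Very long neural adhesion genes, picked for their length, held mostly repeated intervals. Of 36 such genes 29 were hosts (80.6%, 65.0 to 90.2%), compared with 30.8% of all genes with 50 kb or more of eligible intron. The 2 sets are unlike in length, with a median of 1070 kb of eligible intron in the list and 104 kb in the others. They held 79 intervals, of which 73 were mostly repeated. Per Mb of their eligible intron, single-copy intervals numbered 0.138 and mostly repeated ones 1.68, compared with 2.08 and 1.5 in all eligible intron and with 33.6 and 1.6 in the 0.625 Mb of the pluripotency list. The density of mostly repeated intervals was thus close to that of all eligible intron. Cntnap2 held 9, Lrp1b, a lipoprotein receptor family gene, and Galntl6 held 5 each, and Dlg2, which holds the family B unit shown above, held 4. Of the 36 genes 20 had a marked promoter, a smaller share than the 76.5% of genes with 50 kb or more of eligible intron. Of all genes with eligible intron 69.5% were marked.

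Some single-copy intervals lay within 1 kb of start sites that the RefSeq annotation holds and GENCODE does not. A RefSeq transcript start lay within 1 kb of the centre of 90 intronic intervals (3.97%, 3.24 to 4.86%), and 76 of the 90 were single-copy. The share of all H3K4me3 intervals was 52.6%, and that of promoter intervals 95.5%. The rule left out intervals near GENCODE starts, so the lower intronic share follows from the rule. How much of eligible intron lies within 1 kb of a RefSeq start was not counted. The share of single-copy intronic intervals was 5.78% (4.65 to 7.18%), below the 9.35% (8.11 to 10.8%) of single-copy intergenic ones. The nearest transcript was predicted by computation in 80 cases and curated in 10. It carried the symbol of the host gene in 50 cases, and in the case of Fam19a4 its newer symbol, Tafa4. The start of an Osbp2 transcript lay 4 bp from the centre of its interval, that of a Tns3 transcript 81 bp and that of a Gab1 transcript 244 bp. The intervals in Etv5 and Akap12 had no RefSeq start within 1 kb. Of the CG-dense intervals named above, those in Osbp2, Macrod1, Cntn3 and Nrg2 had one within 1 kb and the others had none.

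Single-copy intervals also met annotated enhancers. RefSeq lists 265 enhancer elements in eligible intron, and 22 of them (8.30%, 5.55 to 12.2%) met 31 intronic intervals, all single-copy. The 31 were 1.37% of all intronic intervals. The elements cover 0.0963% of eligible intron, which is a share of bases. Because 1 shared bp counted, wide elements and intervals meet more often than that share of bases. It is therefore not the level to set beside the 8.30%, and no such level was computed. The Rbpms element, active in heart, met 3 intervals, and so did that of Ccnd3, active in somite, midbrain and limb. An interval of 937 bp in Slc2a3, a glucose transporter gene, met HA-Tex10 and lay over an element that activated the Nanog promoter in mouse embryonic stem cells, per the RefSeq entry. The tissues named are those of the reporter assays, and activity in PGCLCs was not measured.

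Short motif words were counted in the central 200 bp, on both strands, beside the tiles of the same introns. The words can overlap one another, and single-copy intervals had more GC than the tiles (52.5% compared with 42%). The SP word GGGCGG was present in 13.2% (11.4 to 15.1%) of single-copy intervals and 1.73% of tiles, the TFAP2 word GCCNNNGGC in 9.97% (8.46 to 11.7%) and 2.79%, and the ZFP57 word TGCCGC in 7.46% (6.16 to 9.01%) and 1.14%. The E-box CACGTG was present in 4.49% (3.50 to 5.75%) and 2.14%, the KLF word GGGTGTGG in 2.51% (1.79 to 3.51%) and 1.22%, and the ETS word CCGGAAGT in 0.609% (0.309 to 1.20%) and 0.110%. All of these are rich in G and C.

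For the words of 6 further factors the range of the intervals included the share of tiles. The OCT word ATGCAAAT was present in 1.29% (0.809 to 2.06%) of single-copy intervals and 1.57% of tiles, the SOX word AACAAAG in 5.86% (4.71 to 7.26%) and 5.83%, and the ESRRB word TCAAGGTCA in 0.381% (0.163 to 0.888%) and 0.453%. The T-box word AGGTGTGA was present in 0.913% (0.523 to 1.59%) and 0.826%, the TEAD word ACATTCC in 3.50% (2.63 to 4.64%) and 2.74%, and the PRDM1 word in 0.0761% (0.0134 to 0.430%) and 0.0327%. Fewer intervals than tiles held the GATA word AGATAA (6.85%, 5.61 to 8.34%, compared with 13.2%), the NFY word CCAAT (19.3%, 17.2 to 21.5%, compared with 27.3%), the AP-1 word TGANTCA (4.72%, 3.70 to 6%, compared with 6.05%) and the TCF/LEF word ATCAAAG (2.59%, 1.86 to 3.59%, compared with 3.85%). The CTCF word was present in 23 single-copy intervals (1.75%, 1.17 to 2.61%) and in 1.10% of tiles. The widest of these lay in Mkrn1 (1979 bp), Gse1 (802 bp) and Prtg (793 bp). The longer words of NRF1, REST, YY1 and OCT-SOX and the CREB word TGACGTCA were in 0 of 1314, a count that leaves room for a share of 0.228% (3 counts of the total). Their shares of tiles, 0.0424% (NRF1), 0.00497% (REST), 0.00415% (YY1), 0.0013% (OCT-SOX) and 0.108% (CREB), all lay under that limit, so no difference was detectable.

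**Figure D5:**
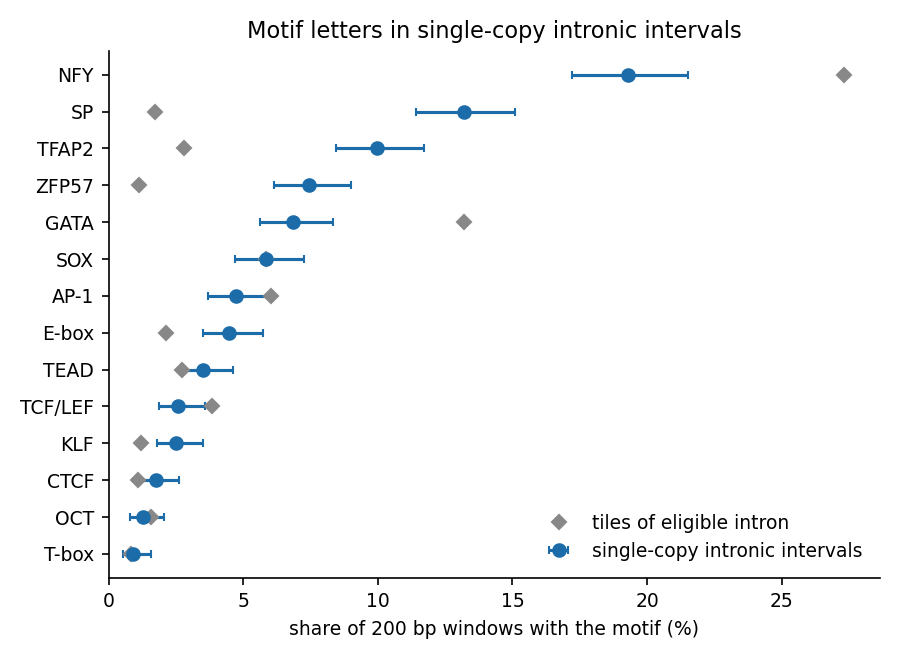
Share (%, horizontal axis) of 200 bp windows that hold each of the 14 commonest motif words (vertical axis), for single-copy intronic intervals (blue, with 95% Wilson intervals) and for tiles of the same introns (grey). SP, TFAP2 and ZFP57 words lie well to the right of their tiles, NFY and GATA words to the left.

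Family B differed from families A and C in the words it carried. The SP word was present in 59.6% of family A and 88.1% of family C intervals and in 0.356% of family B. Family B instead held the NFY word in 92.9% and the TFAP2 word in 88.6% of its intervals, which families A and C held in 0.427% and 0% (NFY) and in 0% and 0% (TFAP2). The letters ccaat can be seen in the family B unit printed above. Members of a family are related copies, so these shares describe 3 groups of related sequences rather than independent intervals. A match of letters is not a measured binding site.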

How the data were processed

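Chromatin immunoprecipitation with an enzymatic chromatin kit, per the labels' protocols, gave 1 deposited list of intervals for H3K4me3 and 1 for HA-Tex10. The only values used are the other, positional kind, interval starts and ends in bp as the authors deposited them, with no score. The submitters' processing notes name mm10 (GRCm38), Bowtie2 2.3.4.3, SAMtools 1.9, MACS2 2.1.2 and HOMER without giving their roles, and whether intervals were called per replicate or on pooled reads is not given in the sources used here. A further deposited list held only the HA-Tex10 intervals that meet H3K4me3 and was not used, nor was any file of the input samples. No interval ran past a GRCm38 chromosome end.

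Coordinates count from 1. Genes came from GENCODE M21 and sequence, functional elements and further starts from RefSeq GRCm38.p6. Overlap meant at least 1 shared bp. Words of 32 bases were counted on both strands of the assembled chromosomes, with narrow intervals read over at least 100 bp. Shares have 95% Wilson and densities 95% Poisson intervals. The scripts (Python 3.11.15, numpy 2.4.6, pandas 2.3.3, scipy 1.17.1, numba 0.67.0) were tested on simulated data.

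The rule, the gene lists and the motifs were chosen with earlier results of these data known, and the families, their spacing, reading frames and copies were defined after seeing these intervals. Genes named were those with the 10 highest counts, the 10 widest intervals, the 10 widest single-copy intervals meeting HA-Tex10, the 10 with most CG dinucleotides, the 3 widest with the CTCF word, the 5 with most intervals per Mb among genes with 3 or more, and every listed gene that was a host. Elements and RefSeq starts named, the 3 family units and the long genes singled out were chosen after their values were seen. Alternatives changed the distance, exons, width, overlap, windows and repeats, or left out chromosome 8. The sequence of 1 further interval is not reported here.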

Additional observations from a re-analysis of the deposited data

Results flagged for a closer look

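Chromosome X was outside the rule. It held 94 intervals that meet every other condition, which is 2.85 per Mb of eligible intron (2.31 to 3.49), above the 0.0911 per Mb that a count of 0 would allow. Of these, 78 were mostly repeated. Chromosome Y held 2, both mostly repeated. The depth on the sex chromosomes is unknown.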

How the results depend on the processing

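Each antibody has 1 list of intervals, so the depth is unknown, no replicate could be left out and no spread between samples limits any value. No paired analysis was possible because the deposited lists carry no replicate. Of 114 values recomputed under 18 alternatives, 61 stayed within the main value's 95% counting interval (within 1.5 times for counts) and 53 moved beyond it. Why they moved was not tested, beyond what each alternative leaves out by construction. Of 189 shares of motif words other than CTCF, over all intronic intervals, 148 stayed and 41 moved. With a window of 500 bp in place of 200 bp, which holds more letters, the E-box share went from 2.91 to 8.74%, AP-1 from 2.96 to 8.08%, SOX from 3.53 to 8.03%, GATA from 5.6 to 12.4%, ZFP57 from 4.77 to 10.9%, SP from 22.2 to 36.5%, TFAP2 from 16.9 to 25.7% and NFY from 24.3 to 41.3%. Tiles of 500 bp were not counted.

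With a limit of 2500 bp from transcript starts, the median width was 435 bp, the density 4 per Mb, first introns held 38.9%, HA-Tex10 met 7.41%, 79.0% of host genes were marked, the median GC content was 55.5%, the CpG ratio 0.395, the mostly repeated share 35.0% and the neighbour share 28.8%. With 10000 bp the density was 3.13 per Mb, first introns held 29.3%, GC content was 61.0%, the CpG ratio 0.5, the mostly repeated share 51.7%, the CTCF word share 0.922% and the neighbour share 19%.

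Intervals at least as wide as the median numbered 1135, with a median width of 755 bp, 1.79 per Mb, HA-Tex10 at 13.5%, 73.7% of host genes marked, GC content of 62%, a CpG ratio of 0.531, 52.4% mostly repeated, 19.3% with a neighbour and 36 list genes as hosts, compared with 58. Without mostly repeated intervals there were 1314, with a median width of 396 bp, 2.08 per Mb, 41.8% in first introns, HA-Tex10 at 3.04%, 87.6% of host genes marked, 5.78% near a RefSeq start, GC content of 52.5%, a CpG ratio of 0.304, 33.9% with a neighbour and 29 list genes as hosts.

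Without chromosome 8 the density was 3.34 per Mb, the CpG ratio 0.459 and the mostly repeated share 44.4%. Merging intervals within 1 kb gave a median width of 548 bp, 3.07 per Mb, GC content of 59.5%, a CpG ratio of 0.479 and 46.3% mostly repeated, and by construction left no neighbour within 1 kb. HA-Tex10 met 10.1% when allowed to lie within 1 kb and 5.03% when only its intervals at least as wide as their median were used. A RefSeq window of 2.5 kb gave 6.22%, a sequence window of 500 bp a GC content of 56.2% and a CTCF share of 3.71%, a gap of 5 kb a neighbour share of 35.0%, and calling intervals repeated from any word or from all words gave 52.7% and 31%.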
